A study of Mus musculus with 6 samples.

Results

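The genes described here are the enzymes of cholesterol synthesis and the proteins that control SREBP2, the transcription factor that drives them. They were chosen by name, as 29 listed genes, and 28 of them had at least 1 probe set of their own among the 18193 genes of the array. Acat2, a cytosolic thiolase at the head of the route, enters the promoter counts, but its expression was not analysed here. A gene with several probe sets was read from the brightest, by its mean on the 6 arrays. The samples were 3 E-FABP knockout and 3 wild-type cultures of GM-BMMs, which are macrophages grown from mouse bone marrow with GM-CSF. Both genotypes are labelled strain C57BL/6, and the marrow came from naive animals of 6 to 8 weeks. GM-CSF was given at 20 ng/ml during 7 days of culture. The macrophages then shared medium for 18 h with an equal number of E0771 cells in a culture insert; E0771 is a breast cancer line of the mouse. E-FABP, a cytosolic fatty-acid-binding protein, is the product of Fabp5. All 6 cultures had met the tumour cells, so the comparison is of knockout with wild-type macrophages after tumour exposure. Any other genetic difference between the mice of each genotype cannot be told apart from loss of E-FABP. The labels call the replicates biological but do not say whether they are separate animals. The p-values cover only the spread between these cultures, which may be less than that between animals.

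Cholesterol is built from acetyl-CoA by way of mevalonate, isoprenoid diphosphates, squalene and lanosterol. SREBP2 is made as a membrane protein of the endoplasmic reticulum, where Scap escorts it and the Insig proteins hold the pair back when sterols are plentiful. When sterols fall, SREBP2 moves to the Golgi, is cut by the proteases of Mbtps1 and Mbtps2, and switches on most genes of the route, Insig1 included. In macrophages the route also meets the inflammatory response, because interferons are known to lower sterol synthesis.

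The Fabp5 probe set read 8.13, 8.31 and 8.39 log2 intensity in knockout replicates 1, 2 and 3, against 14.47, 14.41 and 14.45 in wild-type replicates 1, 2 and 3 (difference -6.17, SE 0.08). A second Fabp5 probe set read 5.94, 6.39 and 5.70 in knockout, against 13.90, 13.83 and 13.96 in wild type (difference -7.89, SE 0.15). Where the probes lie relative to the deletion was not analysed here. The median log2 intensity per array ran between 5.60 and 5.64, and the number of arrays limits the precision. Macrophage markers were bright on all arrays, with a mean level over 10 genes of 12.06 to 12.22 in knockout and 12.30 to 12.35 in wild type. Of these, Fcgr1 and Mertk fell. Epithelial markers, which the tumour cells could carry over, lay at a mean level of 5.91 to 5.95 in knockout and 5.87 to 5.95 in wild type, and 0 of 10 passed in limma, with 1 higher (unadjusted p under 0.05) and 1 lower.

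Promoters of 5 of the genes are shown because SREBP2 is known to act on sterol genes together with the CCAAT-binding factor NF-Y. Hmgcs1, Idi1 and Cyp51 rose in the knockout, and Ggps1 and Insig1 did not pass the test. Each sequence runs 5′ to 3′ on the gene's strand, from 250 bases before the start site to 50 after it (RefSeq, GRCm38.p6). Capitals mark the sterol regulatory element TCACNCCAC or the NF-Y box CCAAT, on either strand. The windows are chr13:119690101-119690400 (plus strand) for Hmgcs1, chr13:8885356-8885655 (plus) for Idi1, chr5:4104648-4104947 (minus) for Cyp51, chr13:14063439-14063738 (minus) for Ggps1 and chr5:28071162-28071461 (plus) for Insig1.
Hmgcs1: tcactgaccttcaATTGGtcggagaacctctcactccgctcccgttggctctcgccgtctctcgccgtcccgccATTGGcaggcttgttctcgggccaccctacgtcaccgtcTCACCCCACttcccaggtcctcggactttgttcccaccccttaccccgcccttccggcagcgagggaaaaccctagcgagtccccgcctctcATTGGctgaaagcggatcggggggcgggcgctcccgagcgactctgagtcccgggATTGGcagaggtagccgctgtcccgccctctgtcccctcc
Idi1: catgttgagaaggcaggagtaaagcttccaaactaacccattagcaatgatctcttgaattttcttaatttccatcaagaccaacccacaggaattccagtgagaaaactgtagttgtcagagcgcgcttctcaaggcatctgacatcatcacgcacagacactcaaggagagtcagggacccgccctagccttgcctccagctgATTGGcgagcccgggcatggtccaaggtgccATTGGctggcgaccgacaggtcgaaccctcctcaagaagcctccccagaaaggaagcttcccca
Cyp51: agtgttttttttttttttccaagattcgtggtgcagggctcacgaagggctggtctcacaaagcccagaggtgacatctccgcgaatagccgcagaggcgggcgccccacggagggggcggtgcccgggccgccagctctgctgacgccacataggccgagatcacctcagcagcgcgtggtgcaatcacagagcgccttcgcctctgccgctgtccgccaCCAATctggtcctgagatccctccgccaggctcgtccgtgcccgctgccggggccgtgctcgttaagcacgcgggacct
Ggps1: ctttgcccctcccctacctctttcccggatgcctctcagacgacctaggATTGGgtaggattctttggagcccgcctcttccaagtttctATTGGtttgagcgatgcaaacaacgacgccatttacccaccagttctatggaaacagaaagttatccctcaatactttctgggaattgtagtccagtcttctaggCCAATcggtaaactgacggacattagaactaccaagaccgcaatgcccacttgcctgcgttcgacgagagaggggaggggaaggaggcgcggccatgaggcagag
Insig1: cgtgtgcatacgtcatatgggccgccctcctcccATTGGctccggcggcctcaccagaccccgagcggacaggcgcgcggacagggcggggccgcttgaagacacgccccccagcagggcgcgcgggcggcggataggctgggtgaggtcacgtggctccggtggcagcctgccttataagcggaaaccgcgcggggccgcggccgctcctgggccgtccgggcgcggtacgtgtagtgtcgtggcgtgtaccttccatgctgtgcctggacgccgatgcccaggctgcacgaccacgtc
In these windows the Hmgcs1 promoter held 1 sterol element, at bases -137 to -129 from the start, and 4 NF-Y boxes. NF-Y boxes numbered 2 for Idi1, 1 for Cyp51, 3 for Ggps1 and 1 for Insig1. RefSeq promoters were matched for 25 of the 29 listed genes, and those of Fdps, Fdft1, Sqle and Stard4 were not. The sterol element stood in 1 of these 25 genes (4.0%), against 1.44% of all 27025 genes with a promoter. A CCAAT box stood in 21 of 25 (84.0%), against 41.1% of all genes. The Sp1 box GGGCGG stood in 21 of 25 (84.0%), against 38.2%, and the E-box CACGTG in 7 of 25 (28%), against 8.09%. CCAAT boxes were present for the 6 matched genes of the 10 that rose and for 15 of the 18 that did not pass. The shares of all genes were not matched for expression, and all 28 measured genes lay above the median of all array values. Shares among expressed genes were not taken. A match describes the letters of the window, not a bound site. Only the spelling TCACNCCAC was searched, so a window without a match may still hold a sterol element of other letters. All motifs were read on both strands, and in Hmgcs1 the sterol element and the NF-Y boxes did not overlap.

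Of the 28 genes, 10 rose in the knockout, 0 fell and 18 did not pass at a limma adjusted p under 0.05. The 10 are 35.7% of these genes, beside 2.85% of all 18193 genes called higher and 2.05% called lower. Another 10 were higher at an unadjusted p under 0.05 without passing the adjustment, which made 20 of 28 beside 15.2% of all genes; 0 were lower at that level. The mean was higher in knockout for 27 of 28 genes, beside 53.1% of all genes. In 22 of 28 genes (78.6%, beside 20.7% of all genes) the 3 knockout values lay above the 3 wild-type values. The median difference over the 28 genes was 0.28 on the log2 scale, beside 0.01 over all genes. The genes are co-regulated and were listed with earlier results of these data known, so these shares describe the route and are not a test of it. The 10 rises were modest, from 0.33 for Hsd17b7 to 0.71 for Stard4, or 1.26-fold to 1.64-fold.

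**Figure D1:**
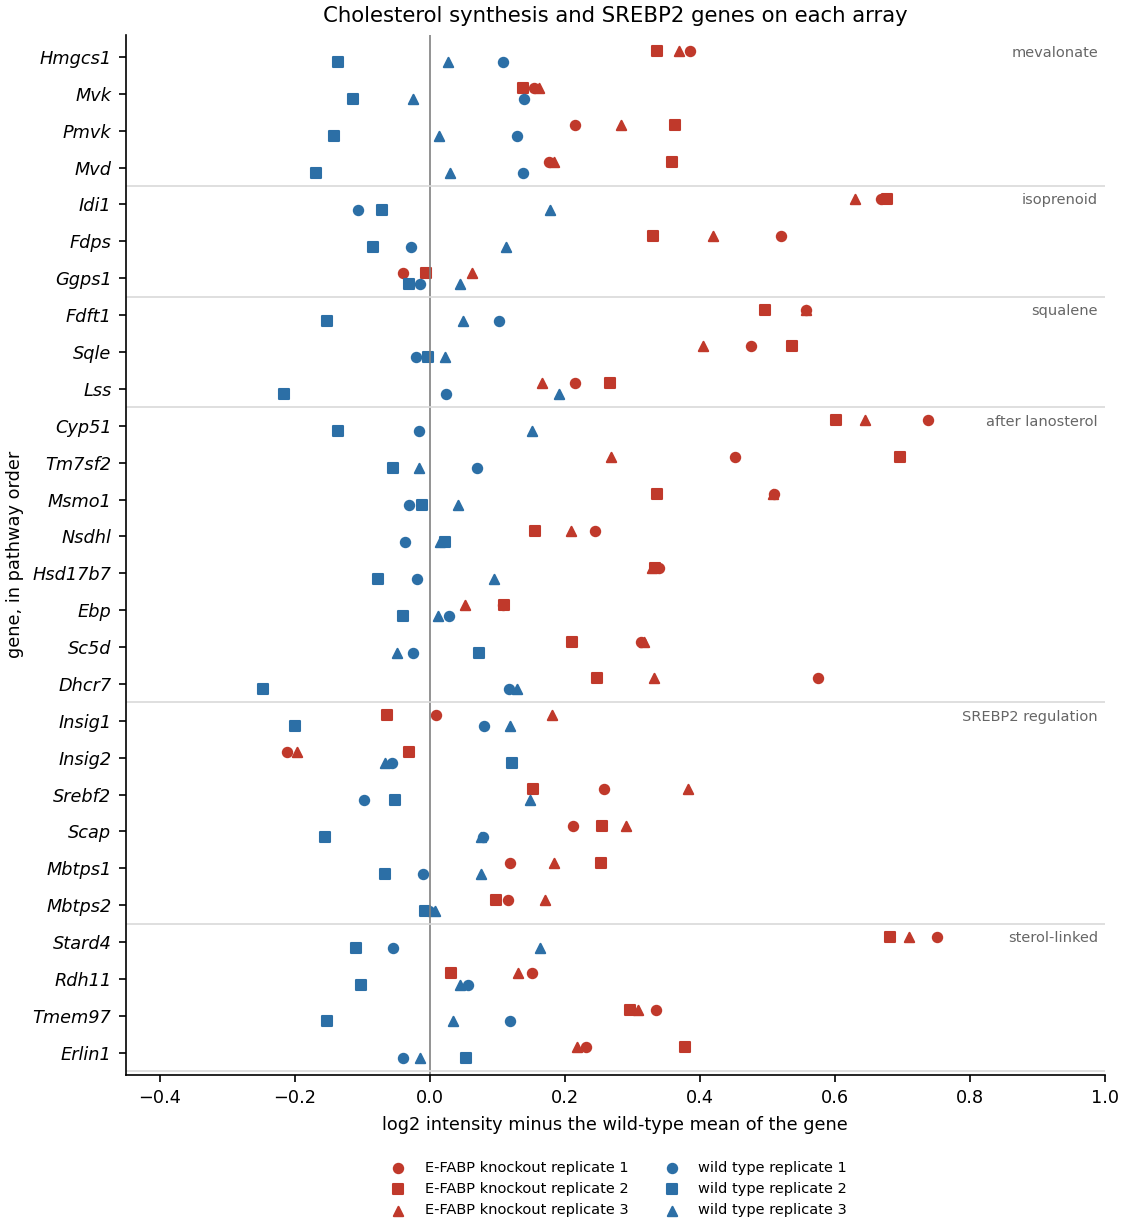
Log2 intensity of each of the 28 genes on each array, minus that gene's wild-type mean (x axis), in pathway order down the page, with knockout in red and wild type in blue and a marker shape for each replicate. Knockout points lie right of all wild-type points for 22 genes, and those of Ggps1, Insig1 and Insig2 mix with wild type.

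The mevalonate steps come first. Hmgcs1, which makes HMG-CoA, read 10.78, 10.73 and 10.76 in knockout replicates 1, 2 and 3, against 10.50, 10.26 and 10.42 in wild-type replicates 1, 2 and 3. The groups did not overlap, and the difference was 0.36 (SE 0.08, n = 3 each, limma adjusted p = 0.0391). Of its 4 other probe sets, 3 rose too, by 0.32, 0.40 and 0.31, and the fourth was dim (4.35 in knockout and 4.30 in wild type). The kinases and the decarboxylase that follow did not pass. Phosphomevalonate kinase, Pmvk, averaged 8.26 ± 0.07 in knockout and 7.97 ± 0.14 in wild type (SD, n = 3 each; limma adjusted p = 0.0977). The decarboxylase Mvd averaged 7.98 ± 0.10 in knockout and 7.74 ± 0.16 in wild type, also without overlap (limma adjusted p = 0.192). Mevalonate kinase, Mvk, differed by 0.15 with a 95% interval of -0.02 to 0.33, and its groups overlapped.

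At the isoprenoid steps the genes differed from each other. Idi1, the isomerase that prepares the building blocks for chain growth, read 9.74, 9.75 and 9.70 in knockout replicates 1, 2 and 3, against 8.96, 9.0 and 9.25 in wild-type replicates 1, 2 and 3. Every knockout culture was above every wild-type culture, by 0.66 on average (SE 0.09, limma adjusted p = 0.0158, 1.58-fold). Its other probe set rose by 0.79. Fdps, which makes farnesyl diphosphate, the last intermediate shared with protein prenylation, read 8.18, 7.99 and 8.08 in knockout and 7.63, 7.58 and 7.78 in wild type. The groups were apart by 0.42 (SE 0.08, limma adjusted p = 0.0292). Ggps1 extends farnesyl diphosphate to geranylgeranyl diphosphate, which serves prenylation and not sterols. It read 7.60, 7.63 and 7.70 in knockout, against 7.62, 7.61 and 7.68 in wild type. These values mix; the difference was 0.01 and its 95% interval was -0.14 to 0.15. The other 3 Ggps1 probe sets differed by 0.03, 0.00 and -0.08, and 0 of them passed.

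Of the 3 genes from squalene to lanosterol, 2 rose. Squalene synthase, Fdft1, read 8.61, 8.55 and 8.61 in knockout replicates 1, 2 and 3, against 8.16, 7.90 and 8.11 in wild-type replicates 1, 2 and 3 (difference 0.54, SE 0.08, limma adjusted p = 0.0191). Squalene epoxidase, Sqle, a slow step of the route, read 9.40, 9.46 and 9.33 in knockout, against 8.91, 8.92 and 8.95 in wild type. The Sqle groups were tight and apart, by 0.47 (SE 0.07, limma adjusted p = 0.0169). Lss, which closes squalene epoxide to lanosterol, averaged 6.87 ± 0.05 in knockout and 6.66 ± 0.20 in wild type. Wild-type replicate 3, at 6.85, lay inside the Lss knockout range, and the gene did not pass (limma adjusted p = 0.274). The 3 Lss probe sets disagreed in sign, the other 2 lying at -0.15 and 0.38.

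Among the 8 genes after lanosterol, 4 rose and all 8 had knockout values above the wild-type values on every array. Cyp51, the lanosterol demethylase, read 8.15, 8.01 and 8.05 in knockout replicates 1, 2 and 3, against 7.39, 7.27 and 7.56 in wild-type replicates 1, 2 and 3. The difference of 0.66 (SE 0.09, limma adjusted p = 0.0158) was matched by a second bright probe set, which rose by 0.91. The sterol reductase Tm7sf2 read 7.12, 7.36 and 6.93 in knockout, against 6.73, 6.61 and 6.65 in wild type. Its knockout cultures spread the most of the 10 genes that rose (SD 0.21), and the difference of 0.47 (SE 0.11) stood nearest the threshold (limma adjusted p = 0.0444). Msmo1, the methylsterol monooxygenase, read 9.61, 9.44 and 9.61 in knockout, against 9.07, 9.09 and 9.14 in wild type (difference 0.45, SE 0.07, limma adjusted p = 0.0217). Hsd17b7, the 3-ketosteroid reductase of the same demethylation complex, read 7.27, 7.26 and 7.26 in knockout, against 6.91, 6.85 and 7.02 in wild type. Its difference was 0.33 (SE 0.07, limma adjusted p = 0.0361). Hsd17b7 had 3 more probe sets, which lay at 0.22, 0.02 and -0.07 and did not pass.

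The other 4 late enzymes did not pass. The desaturase Sc5d averaged 9.43 ± 0.06 in knockout and 9.14 ± 0.06 in wild type (SD, n = 3 each), close to the threshold (limma adjusted p = 0.0598). The terminal reductase Dhcr7 differed by 0.39, more than Hmgcs1 or Hsd17b7, but its cultures were spread (7.61 ± 0.17 in knockout and 7.22 ± 0.21 in wild type; limma adjusted p = 0.114). The dehydrogenase Nsdhl differed by 0.20 (95% interval 0.06 to 0.35, limma adjusted p = 0.114). The isomerase Ebp differed least, by 0.09 (95% interval -0.05 to 0.23). Neighbouring steps thus gave differences of unlike size, from 0.09 to 0.66, and these sizes are on the scale of each probe set and were not tested against each other.

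**Figure D2:**
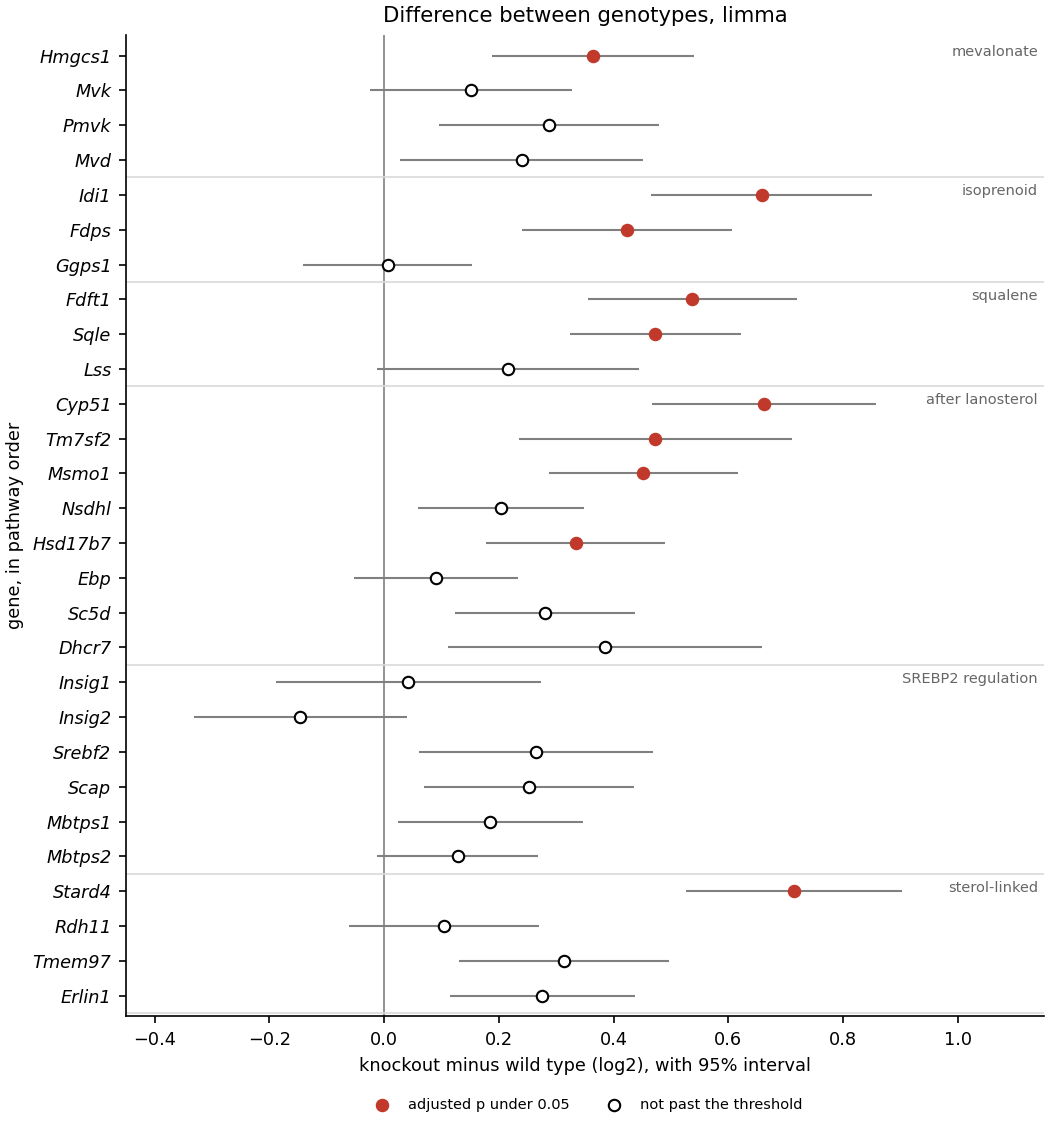
Log2 difference, knockout minus wild type (x axis), for the 28 genes in pathway order, with limma's 95% intervals as lines and filled points for an adjusted p under 0.05. The 10 filled points lie between 0.33 and 0.71 and spread over 5 of the 6 stages. The 6 regulators of SREBP2 hold 0 of them, where 2.85% of all genes were called higher.

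Of the 6 genes that control SREBP2, 0 passed limma's threshold in either direction, beside 2.85% of all genes called higher and 2.05% lower. A list this short can hold 0 calls without differing from the rest. At an unadjusted p under 0.05, 3 were higher and 0 lower, beside 15.2% of all genes higher. In 4 of the 6 the knockout values lay above the wild-type values, beside 20.7% of all genes. Srebf2, which codes for SREBP2 itself, read 8.36, 8.26 and 8.49 in knockout replicates 1, 2 and 3, against 8.01, 8.05 and 8.25 in wild-type replicates 1, 2 and 3. Knockout replicate 2 and wild-type replicate 3 lay next to each other, and the difference of 0.26 (SE 0.09) did not pass (limma adjusted p = 0.140). Its other probe set differed by 0.07. The escort gene Scap read 7.97, 8.01 and 8.05 in knockout, against 7.83, 7.60 and 7.83 in wild type, a difference of 0.25 with a 95% interval of 0.07 to 0.44 (limma adjusted p = 0.120). The proteases Mbtps1 and Mbtps2 differed by 0.19 and 0.13 and did not pass (limma adjusted p = 0.185 and 0.293). A further probe set listed for both Mbtps2 and Yy2 differed by 0.01.

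The Insig genes gave another picture. Insig1, a well-known target of SREBP2 and its brake, read 8.81, 8.74 and 8.98 in knockout replicates 1, 2 and 3, against 8.88, 8.60 and 8.92 in wild-type replicates 1, 2 and 3. The groups mixed, with a difference of 0.04 and a 95% interval of -0.19 to 0.27 (limma adjusted p = 0.869). Insig1 has 1 probe set here, so no second reading was at hand. Insig2, the isoform that in mouse liver is not driven by SREBP2, read 8.99, 9.17 and 9.0 in knockout, against 9.14, 9.32 and 9.13 in wild type. It was the gene of the 28 with a lower mean in knockout (difference -0.15, 95% interval -0.33 to 0.04, limma adjusted p = 0.367). Further Insig2 probe sets lay at 0.02 and 0.05. The upper bound for Insig1, 0.27, lies under the lower bounds of Idi1 (0.47), Cyp51 (0.47), Stard4 (0.53), Fdft1 (0.35), Sqle (0.32) and Msmo1 (0.29). It lies above those of the other 4 genes that rose, Fdps (0.24), Tm7sf2 (0.24), Hmgcs1 (0.19) and Hsd17b7 (0.18), and differences between genes were not tested.

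Among the sterol-linked genes, Stard4 stood out. Stard4, a cytosolic carrier that moves sterols between membranes, read 7.60, 7.53 and 7.56 in knockout replicates 1, 2 and 3, against 6.80, 6.74 and 7.01 in wild-type replicates 1, 2 and 3. Its difference, 0.71 (SE 0.08, limma adjusted p = 0.0127), had the smallest p of the 28 genes, and its other 2 probe sets rose by 0.51 and 0.59. Tmem97, the sigma-2 receptor, averaged 7.53 ± 0.02 in knockout and 7.22 ± 0.14 in wild type (SD, n = 3 each; limma adjusted p = 0.0669). Erlin1, a cholesterol-binding protein of the endoplasmic reticulum, averaged 9.68 ± 0.09 in knockout and 9.40 ± 0.05 in wild type (limma adjusted p = 0.0685). Rdh11, a retinal reductase, overlapped between genotypes (difference 0.10, 95% interval -0.06 to 0.27).

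Probe sets of a gene were compared as a check. The 28 genes had 62 probe sets, of which 18 rose and 0 fell, where 2.06% of all probe sets rose and 3.75% passed in either direction. Of the 34 that did not stand for their gene, 25 lay above the median of all values (5.63), 21 of these were higher in knockout and 8 rose. The other 9 lay at or under that median, and 0 of them passed. Among the 8 genes that rose and had several probe sets, 5 had another that rose: Hmgcs1, Idi1, Fdft1, Cyp51 and Stard4. The other probe sets of Fdps, Msmo1 and Hsd17b7 did not pass, and that of Fdps was at 3.06 in knockout and 3.08 in wild type. Fdft1 was mixed, with a bright probe set at 0.39 and dimmer ones at -0.10 and -0.16.

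**Figure D3:**
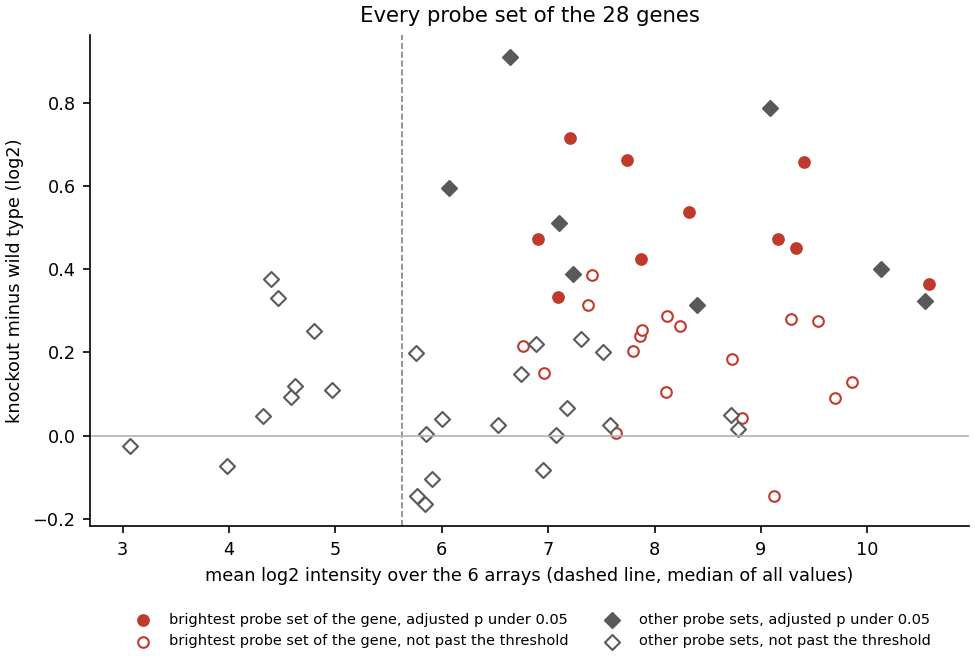
Mean log2 intensity over the 6 arrays (x axis) and knockout minus wild type (log2, y axis) of all 62 probe sets, with red circles for the probe set that stands for its gene, grey diamonds for the others and filled symbols for an adjusted p under 0.05. The 18 filled symbols all lie right of the dashed median of 5.63, and below it no probe set passed.

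The knockout cultures resembled each other in the mean of this route. As the mean deviation from the gene means over the 28 genes, knockout replicates 1, 2 and 3 lay at 0.16, 0.14 and 0.15, and wild-type replicates 1, 2 and 3 at -0.13, -0.23 and -0.09. Wild-type replicate 2 was the lowest wild-type culture for 20 of the 28 genes. By stage the knockout cultures were less alike, with the genes after lanosterol at 0.23, 0.16 and 0.15 and the SREBP2 regulators at 0.02, 0.05 and 0.11. Some related lists, described below, also spread little in knockout. Fatty acid synthesis genes lay at 0.12, 0.17 and 0.10 and the further sterol and SREBP-linked genes at 0.02, 0.08 and 0.07. Genes of oxysterols, cholesterol transport and export spread more (-0.08, -0.21 and -0.02). Evenness in knockout was not particular to this route. Epithelial markers lay at 0.03, -0.01 and 0.01, and the sensing partners described below at -0.004, 0.02 and 0.05. Fibroblast markers lay at -0.31, -0.19 and -0.21 and macrophage markers at -0.06, -0.18 and -0.01. In 4 further lists outside the route the same knockout cultures were less even. Interferon-stimulated genes, of which 18 of 19 fell, lay at -0.75, -1.62 and -0.19 in knockout replicates 1, 2 and 3, and at 0.75, 1.13 and 0.68 in wild type. Dendritic cell markers (1 of 12 rose) lay at 0.12, 0.46 and -0.01 in knockout and at -0.24, -0.29 and -0.03 in wild type, and cell cycle genes (11 of 19 rose) at 0.26, 0.39 and 0.05 in knockout and at -0.23, -0.37 and -0.10 in wild type. Neutrophil markers lay at -0.19, -0.57 and 0.03 in knockout and at 0.23, 0.12 and 0.39 in wild type. In limma 0 of these 12 passed after adjustment, and before it 9 were lower and 1 was higher at p under 0.05. Over all 18193 genes, 2.85% were called higher and 2.05% lower, and before adjustment 2769 were higher and 1482 lower at p under 0.05. Knockout replicate 3 was the knockout culture nearest to wild type in these 4 lists, and in the cholesterol route the 3 knockout cultures lay within 0.14 to 0.16. Among the wild-type cultures the lists moved together: replicate 2 had the lowest cholesterol and cell cycle genes and the highest interferon-stimulated genes, and replicate 3 had the highest cholesterol and cell cycle genes and the lowest interferon-stimulated genes. Fibroblast markers were dim (mean level 4.89 to 5.01 in knockout and 5.39 to 5.50 in wild type), and 3 of 9 fell. RNA came from whole cultures, so a change in the cells present and a change within cells cannot be told apart, and the part of these lists in the sterol result was not tested.

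**Figure D4:**
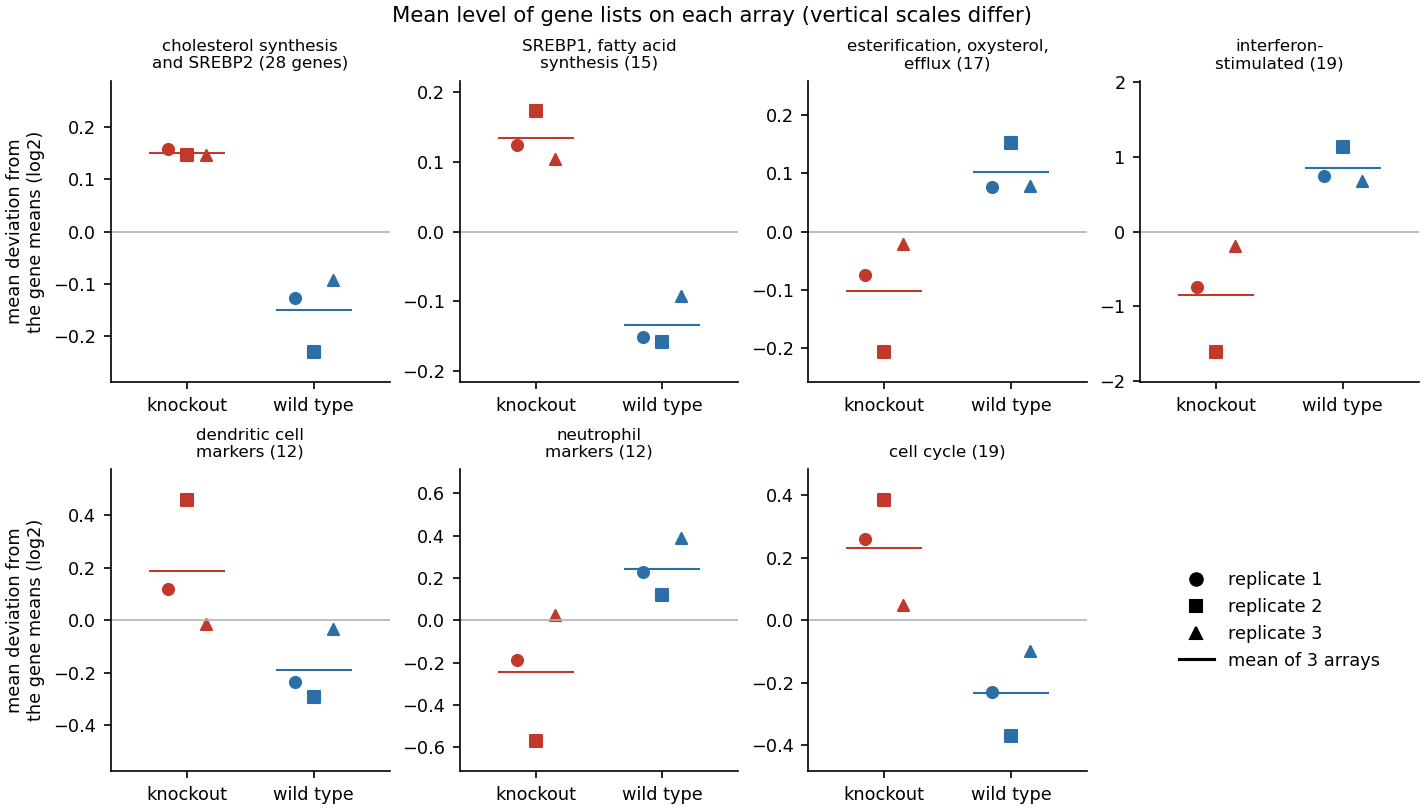
Mean deviation from the gene means (log2, y axis, scales differ) for 7 gene lists on the 3 knockout arrays (left of each panel) and the 3 wild-type arrays (right), with a marker shape per replicate and lines at the means. The knockout points of the cholesterol genes lie at 0.14 to 0.16 and those of fatty acid synthesis at 0.10 to 0.17. Those of the interferon-stimulated list run from -1.62 to -0.19.

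Single cultures decided many calls and moved the sizes less. Without each of knockout replicates 1, 2 and 3, limma called 0, 6 and 7 of the 28 genes higher, and without each of wild-type replicates 1, 2 and 3 it called 5, 1 and 8. Calls over all probe sets dropped as well, with 24 higher and 16 lower without knockout replicate 1, against 927 and 764 on all arrays. Before adjustment, 17 to 20 of the 28 genes were higher at a p under 0.05 in these 6 fits, 20 of them without knockout replicate 1, and 0 were lower except 1 without knockout replicate 2. All 10 genes that rose kept their direction each time, and their differences ran from 0.30 to 0.80. Stard4 kept its call in 5 of the 6 fits, Idi1, Fdft1, Sqle and Cyp51 in 4, Msmo1 in 3, Fdps, Tm7sf2 and Hsd17b7 in 1 and Hmgcs1 in 0.

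In the branches that leave the route, as listed, 0 genes passed. Over all 18193 genes 2.85% were called higher and 2.05% lower, so lists this short can hold 0 calls without differing from the rest. At an unadjusted p under 0.05, 15.2% of all genes were higher. Among 17 measured genes of prenylation, dolichol and ubiquinone synthesis, 0 passed limma's threshold, with 1 higher and 0 lower at an unadjusted p under 0.05. Their median difference was 0.08. Chml, a Rab escort protein that presents Rab GTPases for prenylation, differed by 0.46 (limma adjusted p = 0.0557), the dolichol kinase Dolk by 0.17 and the protease Zmpste24, which trims prenylated lamin A, by 0.13. Among 16 measured partners of sterol sensing in the endoplasmic reticulum, 0 passed, with 2 higher and 1 lower at an unadjusted p under 0.05 and a median of 0.07. The ubiquitin ligase gene Rnf139 differed by -0.27, the sterol-binding Pgrmc1 by 0.17 and the coat subunit Sec24a, which packs cargo for the Golgi, by 0.17. A list of 10 further sterol and SREBP-linked genes also held the NF-Y genes Nfya, Nfyb and Nfyc and the transcription factor gene Sp1. These differed by 0.01, 0.03, 0.00 and 0.08, and Acly, Acss2 and Pnpla3 by 0.12, -0.03 and -0.03. In the whole list 0 passed, with 3 higher and 0 lower at an unadjusted p under 0.05 and a median of 0.06. Those 3 were Lbr, a nuclear membrane protein with sterol reductase activity (difference 0.33, limma adjusted p = 0.0586), the phosphatidate phosphatase Lpin1 (0.34, limma adjusted p = 0.0875) and the acetoacetyl-CoA synthetase Aacs (0.30, limma adjusted p = 0.0900).

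In the related SREBP1 route, 5 of 15 fatty acid synthesis genes rose and 0 fell, beside 2.85% and 2.05% of all genes. The median was 0.22, and the desaturases Scd1 and Fads1 rose by 0.74 and 0.48. Srebf1, which codes for SREBP1, averaged 9.25 ± 0.09 in knockout and 9.05 ± 0.03 in wild type and did not pass (limma adjusted p = 0.146).

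Genes linked to the release of cholesterol from its esters, to oxysterols, and to cholesterol transport and export had a median difference below 0. Of 17 measured, 1 fell and 0 rose, beside 2.05% and 2.85% of all genes, and the median was -0.10. Before adjustment 5 were lower at p under 0.05 and 0 higher, where 1482 of all 18193 genes were lower and 2769 higher. The gene that fell was Stard3, a sterol carrier of late endosomes, which read 9.58, 9.36 and 9.86 in knockout replicates 1, 2 and 3, against 10.11, 10.34 and 10.13 in wild-type replicates 1, 2 and 3 (difference -0.59, SE 0.12, limma adjusted p = 0.0367). The count of this list called lower was 1 without knockout replicate 3 and 0 without each of the other 5 cultures, so Stard3 lost its call in those 5 fits. Ch25h makes an oxysterol that binds the Insig proteins and holds SREBP2 back, and interferon is known to induce it. It read 8.81, 7.88 and 8.84 in knockout, against 9.58, 9.63 and 9.18 in wild type. The genotypes did not overlap, and the difference of -0.96 (SE 0.24, 95% interval -1.49 to -0.42) did not pass (limma adjusted p = 0.0603). Ch25h was lowest in knockout replicate 2, the culture with the lowest interferon-stimulated genes. Among wild-type cultures Ch25h was highest in replicate 2, where the cholesterol genes were lowest, and lowest in replicate 3, where they were highest. In knockout replicates 1, 2 and 3 the cholesterol genes lay at 0.157, 0.145 and 0.146, nearly level, and give no clear order to compare. An order of 3 cultures cannot show whether Ch25h and the cholesterol genes are linked, and such a link was not tested. Npc2, a cholesterol carrier of the lysosome, differed by -0.26 (limma adjusted p = 0.0696). The interferon-stimulated, dendritic cell, neutrophil and cell cycle lists moved on the same arrays, as given above, and their part in these differences was not tested.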

How the data were processed

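The authors' deposited values cover 45101 probe sets on 6 Affymetrix arrays and, judged from their range, are on the log2 scale. Per the submitters' processing notes the tools were GCRMA 2.30.0, RMA, limma 3.14.4 and affy 1.36.1, without role or order. Which background method made the values is unknown and bears most on dim probe sets. The arrays' medians are alike, so a shift of most genes could not be seen. Detection calls and a genome build for the values are not given in the sources used here.

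Affymetrix controls (64) were left out, and 45037 probe sets were fitted with limma 3.58.1 in R 4.3.3 (lmFit, eBayes, genotype as the only term), with Benjamini-Hochberg adjustment over all of them and a threshold of 0.05. Differences are knockout minus wild type, SEs and 95% intervals are limma's with moderated variances (prior degrees of freedom 5.04), and the fit was tested on simulated data. A permutation of the 6 arrays cannot give a two-sided p under 0.1. Of the probe sets 34945 had 1 gene in the platform annotation, with symbols updated through RefSeq, 932 had several and 9160 were unnamed here. No arrays held identical values. Motifs were searched in RefSeq promoters (GRCm38.p6). The members and lists were chosen with earlier results of these data known. Values on every array are given for genes past the threshold, for Insig1, Insig2, Srebf2 and Scap, and for the smallest p of each stage, other genes being Fabp5, Ch25h, Srebf1 and up to 3 per list by p. Yy2 was named, and Ggps1 given on every array, after values were seen. Alternatives are given in the closing section. Figures used matplotlib 3.10.9 in Python 3.11.15.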

Additional observations from a re-analysis of the deposited data

How the results depend on the processing

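The median difference of the 28 genes stayed above 0 under every alternative, and the genes that rose kept their direction except Fdps, which read -0.0246 with the next brightest probe set, a dim one. The number of the 28 called higher, 10, was 0 with a floor at the 20th percentile (4.07), where 20 remained higher at an unadjusted p under 0.05, and 5 of 19 with the next brightest probe set. It lay between 7 and 14 with quantile normalization, median centring, above-median probe sets, trend and robust settings, array weights, no _s_at or _x_at probe sets, all probe sets of a gene averaged or an adjusted p under 0.1, and 0 were called lower in any setting. With the floor the differences of the 10 genes that rose still ran from 0.33 to 0.71, as in the main fit. Quantile normalization ended the calls of Tm7sf2 and Hsd17b7. Averaging all probe sets of a gene ended those of Fdps, Fdft1, Msmo1 and Hsd17b7. Hsd17b7 was read from an _x_at probe set, and without such sets its difference was 0.22 and its call was lost (limma adjusted p = 0.178). Leaving out 1 array gave 0 to 8. The replicate number as a replicate block gave 2 (Cyp51 and Stard4). Samples of the same number did not deviate together (r = -0.06, -0.04 and -0.13 across probe sets). With so few samples per genotype, these r values cannot decide whether the numbers pair the samples, so the block result stands beside the main one.

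All probe sets called higher numbered 1717 above the median level, 52 with the floor, 2050 with trend and robust settings, 49 with the replicate block, 2259 at an adjusted p under 0.1 and 24 to 618 without 1 array. Those called lower numbered 19 with the floor, 43 with the block, 1516 at 0.1 and 16 to 742 without 1 array. The Fabp5 difference ran from -6.23 to -6.10 without 1 array. In the lists, the floor gave 0 calls for fatty acid synthesis, efflux, interferon-stimulated, dendritic cell, macrophage, fibroblast and cell cycle genes. The block gave 2 for fatty acid synthesis, 1 lower neutrophil marker and 0 for efflux, interferon-stimulated, dendritic cell, macrophage and cell cycle genes. Trend and robust settings gave 2 interferon-stimulated genes lower, 2 efflux genes lower, 1 macrophage marker lower, 1 neutrophil marker higher, 2 further sterol genes, 1 isoprenoid branch gene and 1 sensing partner higher. Above-median probe sets gave 3 dendritic cell markers, 1 isoprenoid branch gene and 1 further sterol gene higher and 2 efflux genes lower. Median centring gave 3 dendritic cell markers and 1 isoprenoid branch gene, quantile normalization 0 dendritic cell markers and 5 cell cycle genes, and array weights 1 lower neutrophil marker. Without 1 array the calls ran from 0 to 4 for fatty acid synthesis, 0 to 19 for interferon-stimulated genes, 0 to 12 for cell cycle genes, 0 to 4 for dendritic cell markers, 0 to 7 for lower neutrophil markers, 1 to 3 for fibroblast markers, 0 to 2 for macrophage markers, and 0 to 1 for efflux and for further sterol genes. The cause of these changes was not tested.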
